A study of Mus musculus with 30 samples.

Results

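Myostatin, activin and bone morphogenetic protein (BMP) signalling was followed through 10 genes: the ligand Mstn, the inhibitors Fst and Smad7, the receptors Acvr1b, Acvr2b and Bmpr1a, the signal transducers Smad2, Smad3 and Smad4, and the target Id1. Every non-control array probe that carried 1 of these gene names was taken, which gave 13 of 55681 probes, with 2 probes each for Acvr1b, Smad3 and Smad4. RNA from 30 single fast fibres from the extensor digitorum longus (a muscle of the hindlimb) was measured on 1-colour microarrays, 1 fibre per array. The study asked how the mitochondrial calcium uniporter, the channel protein encoded by Mcu, bears on muscle mass. All fibres came from male CD1 mice infected at 8 weeks of age, or from untreated mice of matching age. MCU vector fibres came from muscles injected with AAVMCU, an adeno-associated virus (AAV) that carries Mcu (3 fibres at day 7, 4 at day 14), and were set against wild-type fibres with no virus (4 at each day). Silenced fibres came from muscles injected with AAVshMCU, directed against Mcu (3 at day 7, 4 at day 14), and were set against transfected control fibres (4 at each day). The control virus is named AAVshLuc in the sample titles but an AAV without cloned insert in other labels. Injected fibres were picked for ZsGreen fluorescence and after a PCR test of Mcu RNA, so they are not a random draw of the infected fibres. The labels do not tie fibres to animals, and p-values measure the spread between fibres.

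Myostatin and the activins are secreted ligands of the TGF-beta family that restrain muscle growth. They bind type II receptors such as Acvr2b, which activate type I receptors such as Acvr1b, and these phosphorylate Smad2 and Smad3, which enter the nucleus with Smad4. BMPs signal through type I receptors such as Bmpr1a to Smad1, Smad5 and Smad9, also with Smad4, and in muscle this branch favours growth. Id1 is a direct BMP target. Follistatin, encoded by Fst, traps myostatin and activins outside the cell, and Smad7 blocks the receptors from inside.

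RefSeq promoter windows (build GRCm38.p6, 250 bases before the start site) were examined for 5 of the 10 genes. Those of the other genes were either not held or are not reported here. The windows of Mstn, Acvr2b and Acvr1b are shown. Mstn is the ligand of the pathway, and the 2 receptors had the widest range of group means among members detected on every array. Capitals mark CAGAC (or GTCTG, its other strand), a Smad-binding pentamer, and the E-box CANNTG, the site of basic helix-loop-helix factors such as the MyoD family.
Mstn: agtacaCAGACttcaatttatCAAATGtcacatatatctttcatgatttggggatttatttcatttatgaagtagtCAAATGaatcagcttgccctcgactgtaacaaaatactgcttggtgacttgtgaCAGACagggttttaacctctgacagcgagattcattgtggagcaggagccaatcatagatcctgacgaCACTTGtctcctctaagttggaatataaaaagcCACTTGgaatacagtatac
Acvr2b: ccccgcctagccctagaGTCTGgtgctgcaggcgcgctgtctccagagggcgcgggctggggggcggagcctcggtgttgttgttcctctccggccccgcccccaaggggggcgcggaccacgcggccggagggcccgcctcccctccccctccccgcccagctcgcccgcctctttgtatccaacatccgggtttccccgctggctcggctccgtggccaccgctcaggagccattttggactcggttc
Acvr1b: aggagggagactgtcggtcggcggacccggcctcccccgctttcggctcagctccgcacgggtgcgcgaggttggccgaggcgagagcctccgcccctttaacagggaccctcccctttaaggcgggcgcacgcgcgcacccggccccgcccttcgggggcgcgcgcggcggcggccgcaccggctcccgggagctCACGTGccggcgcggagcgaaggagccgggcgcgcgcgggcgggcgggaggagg
The Mstn window (chr1:53061390-53061639, plus strand) held 4 E-boxes, at 229, 174, 52 and 19 bases before the start, and 2 CAGAC matches. At least 4 E-boxes were found in 3.84% of the 32851 windows in the table, and at least 1 in 66.2%. The Acvr2b window (chr9:119401928-119402177, plus strand) held 1 GTCTG and no E-box, and CAGAC on either strand was found in 42.2% of all windows. The Acvr1b window (chr15:101173822-101174071, plus strand) held 1 E-box, spelled CACGTG. The BMP-responsive hexamer GGCGCC was in none of these 3 and in 9.59% of all windows. It occurred in the window of Bmpr1a, whereas the Smad3 window held none of the 3 motifs. No motif match overlapped another, and a match is only a run of letters.

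Levels are given as log2 signal minus the array's 75th percentile, so a level of 0 lies at that percentile, and they are comparable between fibres for 1 probe but not between genes. The 75th percentile lay at a signal between 83.2 and 138, and between 49.4% and 59.5% of all probes exceeded background on an array. Precision is limited by how many arrays and how many animals there are, and the labels do not tie fibres to animals. Differences are treated minus control fibres in log2 units. They were called at an adjusted p below 0.05 in a limma fit of all 8 groups and 23342 genes. Each day of each experiment lay on 1 slide with its own controls, treated fibres always in the first 2 columns, so position on the slide and treatment cannot be told apart. Wild-type fibres had no virus, so virus and Mcu cannot be told apart in the MCU vector comparisons. Mcu averaged 3.27 ± 0.28 in MCU vector fibres and 2.67 ± 0.20 in wild-type fibres at day 7, and 6.36 ± 0.35 and 2.46 ± 0.27 at day 14 (SD). It averaged 0.49 ± 0.97 in silenced and 2.57 ± 0.34 in transfected control fibres at day 7, and -0.52 ± 1.10 and 2.55 ± 0.22 at day 14. The Mcu difference of MCU vector fibres passed the test at day 14 (3.90, adjusted p = 4.0e-06) but not at day 7 (0.60, adjusted p = 0.999). Injected fibres had been picked after a PCR test of Mcu RNA, so their Mcu levels are not an independent check of the treatment. All 8 markers of the muscle fibre were well above background on every array. Markers of other cell types were mixed. Of the 5 fibroblast markers, Pdgfra and Dpt exceeded background on 0 of 30 arrays, Lum on 1, Col1a1 on 6 and Col3a1 on 26. Of the 5 satellite cell markers, Myf5, Chrdl2 and Calcr exceeded it on 0, Pax7 on 1 and Cdh15 on 30. Kdr of the endothelial list, Cd68, Csf1r and Ptprc of the myeloid list, Cspg4 of the mural list and Sox10 of the Schwann cell list exceeded it on all 30, and Cdh5 of the endothelial list on 2. The part of other cells in the results was not tested. Myh4, the myosin of the fastest fibres, lay at 7.19 or above in 28 fibres. Silenced day 14 fibres 1 and 3 stood apart, with Myh4 at 5.92 and 0.37 and Myh2, the myosin of fast oxidative fibres, at -0.90 and 6.49. These were the only 2 fibres with Myh2 well above background. Results are therefore also given without both.

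Mstn, the ligand, was measured by a probe at chr1:53124482-53124541 (mm9) that was well above background on 21 of 30 arrays. At day 14 its level was -4.02, -2.09, -4.53 and -1.40 in the 4 silenced fibres, against -0.24, -2.58, -1.95 and -0.90 in the 4 transfected control fibres. At day 7 it was -2.42, -0.87 and -3.42 in silenced fibres, against -0.38, -0.33, -2.84 and -1.30 in transfected control fibres. The highest control fibres lay above every silenced fibre on both days, but the groups overlapped, and the lowest silenced values at day 14 were those of the 2 fibres with Myh2. Over both days the difference was -1.31 (SE 0.60, 95% interval -2.54 to -0.08, adjusted p = 0.140), which was not called. It was -0.68 (adjusted p = 0.528) without the 2 Myh2 fibres, -0.33 (adjusted p = 0.185) after normexp background correction, -0.80 (adjusted p = 0.225) with dim spots raised to the detection floor and -0.041 (adjusted p = 0.968) with Myh4 and Myh1 levels as covariates.

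In MCU vector fibres at day 14, Mstn lay at -0.68, -0.95, -0.19 and -0.53, against -4.80, -0.61, -1.88 and -0.38 in wild-type fibres. The 4 MCU vector fibres spread over less than the wild-type fibres, and 1 of them lay above the highest wild-type fibre. At day 7 the levels were -2.15, -3.12 and -2.43 in MCU vector fibres, against -2.98, -1.48, -2.60 and -3.21 in wild-type fibres. The groups overlapped on both days, and the difference over both days was 0.67 (SE 0.60, 95% interval -0.56 to 1.90, adjusted p = 0.680). Without wild-type day 14 fibre 1, the lowest of all 30, it was 0.18 (adjusted p = 0.919). Within the MCU vector, all day 14 fibres exceeded all day 7 fibres (difference 1.98, adjusted p = 0.295), a comparison in which day and slide cannot be told apart.

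**Figure D1:**
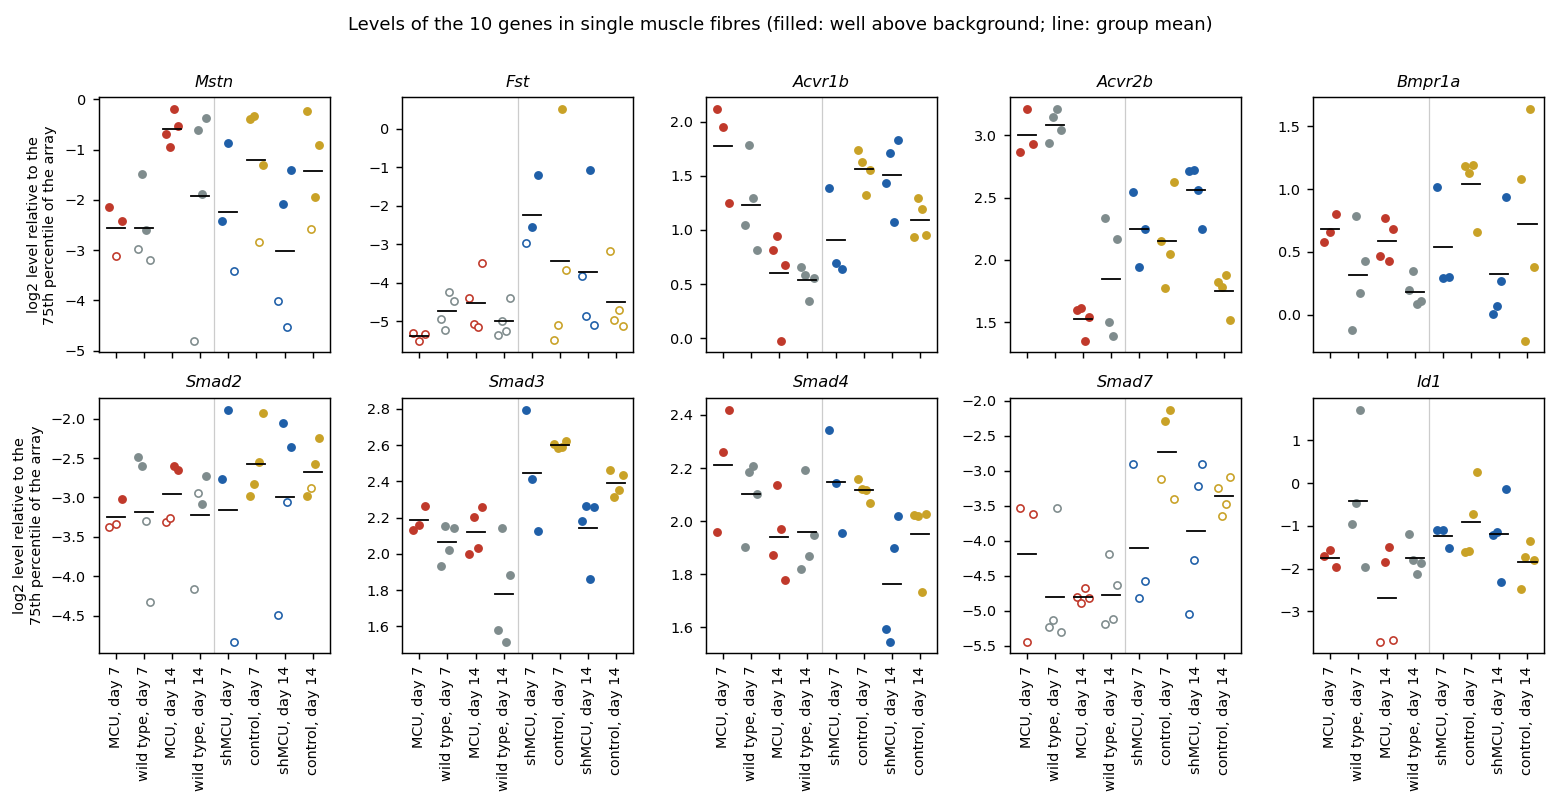
Log2 level of each of the 10 genes relative to the array's 75th percentile, for every fibre in the 8 groups; filled points are well above background, open points are not, and lines are group means. Acvr2b in silenced day 14 fibres lies above all transfected control fibres of that day, while Mstn overlaps between each treatment and its controls.

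Mstn also varied with the fibre's myosin. Its level was lower where Myh1, the myosin of type IIX fibres, was higher, with Pearson's r of -0.60 and Spearman's rho of -0.57 over the 30 fibres. Without the 2 fibres farthest from the median Myh1 level r was -0.51. Within slides r was -0.17 and -0.20 on the slides with MCU vector and wild-type fibres (7 and 8 fibres), and -0.94 and -0.74 on those with silenced and transfected control fibres (7 and 8 fibres). These are descriptions over fibres that share slides and treatments. Myh1 itself averaged 6.38 ± 1.59 in silenced fibres and 2.34 ± 2.69 in transfected control fibres at day 14, and 4.74 ± 2.60 and 3.78 ± 1.93 at day 7 (SD).

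**Figure D2:**
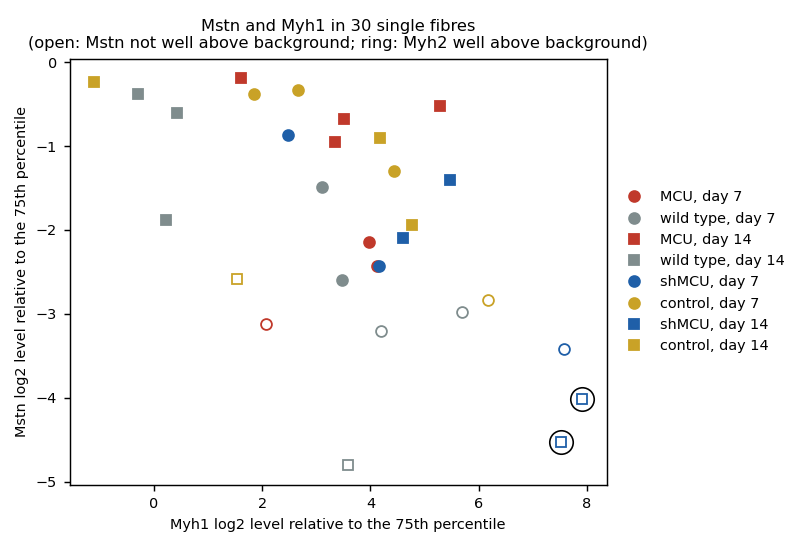
Mstn against Myh1 level (both log2 relative to the array's 75th percentile) in 30 single fibres, coloured by group, circles for day 7 and squares for day 14. The 2 ringed silenced day 14 fibres, with Myh2 well above background, have Mstn at -4.02 and -4.53, near the lower end of all fibres.

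The inhibitors were at the limit of detection. Fst (chr13:115243565-115243624, mm9) was well above background on 4 of 30 arrays and did not pass the filter. Those were silenced day 7 fibres 2 and 3 at -2.56 and -1.20, silenced day 14 fibre 3 at -1.08 and transfected control day 7 fibre 3 at 0.52. No MCU vector, wild-type or transfected control day 14 fibre had Fst well above background. The highest Fst fibre also had a summed level of the 6 slow or oxidative fibre markers of 5.43, against 0.81 to 1.07 in the other 3 fibres of its group. Its summed fibroblast markers, 2 of 5 well above background, reached 1.78, against -2.07 to -0.98. In silenced day 7 fibres 2 and 3 and silenced day 14 fibre 3 the fibroblast sum was -1.15, 0.20 and -1.31. Their slow or oxidative sum was 2.26, 2.69 and 6.53. The fibroblast sum was 1.56 in wild-type day 7 fibre 3, which had no Fst well above background. The part of either set of markers in the Fst values was not tested. Smad7 was well above background on 2 of 30 arrays, transfected control day 7 fibres 2 and 3 at -2.29 and -2.13, and was not tested either. Without the filter, the differences under silencing were 0.98 for Fst (adjusted p = 0.344) and -0.94 for Smad7 (adjusted p = 0.110). In the same fit Smad7 was higher in transfected control than in wild-type fibres by 1.74 (adjusted p = 0.000886). No wild-type fibre had Smad7 well above background, and virus and slide cannot be told apart in that comparison.

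Acvr2b, the type II receptor that binds myostatin, was the only member called under silencing. Its probe (chr9:119342560-119342619, mm9) was well above background on all arrays. At day 14 its level was 2.71, 2.72, 2.56 and 2.25 in silenced fibres, against 1.82, 1.78, 1.88 and 1.52 in transfected control fibres. All 4 silenced fibres lay above all 4 control fibres. The difference was 0.81 (SE 0.19, adjusted p = 0.0172), a 1.76-fold higher signal. At day 7 the levels were 2.54, 1.95 and 2.25 in silenced fibres, against 2.15, 1.77, 2.05 and 2.62 in transfected control fibres, which overlapped (difference 0.10, adjusted p = 0.794). Over both days Acvr2b was higher by 0.45 (SE 0.14, adjusted p = 0.0321). The change of the silencing effect between days, 0.71 (SE 0.28, adjusted p = 0.162), was not called. Without the 2 Myh2 fibres the differences were 0.42 over both days (adjusted p = 0.10) and 0.74 at day 14 (adjusted p = 0.129), and neither was called. The call over both days was also lost when silenced day 7 fibre 1 or 3, silenced day 14 fibre 1 or 2, transfected control day 7 fibre 2 or 3 or transfected control day 14 fibre 4 was left out.

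MCU vector fibres had Acvr2b at 2.86, 3.21 and 2.93 at day 7, against 2.94, 3.15, 3.21 and 3.04 in wild-type fibres. At day 14 the levels were 1.60, 1.62, 1.35 and 1.54 in MCU vector fibres, against 2.34, 1.50, 1.39 and 2.17 in wild-type fibres. The groups overlapped on each day, and the difference over both days was -0.20 (SE 0.14, 95% interval -0.49 to 0.09, adjusted p = 0.565). Acvr2b was lower at day 14 than at day 7 by -1.48 in MCU vector fibres (adjusted p = 5.7e-05, with 2.86% of all genes called) and by -1.24 in wild-type fibres (adjusted p = 0.00065, with 2.41% called). It was -0.40 in transfected control fibres (adjusted p = 0.244, with 3.26% called) and 0.31 in silenced fibres (adjusted p = 0.370, with 8.47% called), neither called. Each day of an experiment lay on its own slide, so day and slide cannot be told apart. In order of group mean, Acvr2b stood at 3.08 in wild type and 3.00 in MCU vector at day 7, 2.56 in silenced at day 14, 2.25 and 2.15 in silenced and control at day 7, 1.85 in wild type and 1.75 in control at day 14, and 1.53 in MCU vector at day 14. Neighbours in this order differed by less than the larger of their SDs, except MCU vector at day 7 and silenced at day 14, silenced at both days, and control and MCU vector at day 14.

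Acvr1b, the type I receptor for activin that is also known as ALK4, showed opposite differences on the 2 days of silencing. At day 7 its level was 1.39, 0.69 and 0.64 in silenced fibres, against 1.74, 1.63, 1.32 and 1.56 in transfected control fibres. At day 14 it was 1.43, 1.71, 1.08 and 1.83 in silenced fibres, against 0.93, 1.30, 1.20 and 0.96 in transfected control fibres. Silenced fibres lay mostly below controls at day 7 and mostly above them at day 14, with some overlap on each day. The differences were -0.65 (SE 0.25, adjusted p = 0.0807) and 0.42 (SE 0.23, adjusted p = 0.343), and the change between days was 1.07 (SE 0.34, adjusted p = 0.0740), none called. The probe shown lies at chr15:101042850-101042909 (mm9), and the other Acvr1b probe gave a change between days of 1.04 (adjusted p = 0.129). In MCU vector fibres Acvr1b was 2.12, 1.95 and 1.25 at day 7, against 1.04, 1.79, 1.29 and 0.81 in wild-type fibres. At day 14 it was 0.81, 0.95, -0.03 and 0.68, against 0.66, 0.59, 0.35 and 0.56 in wild-type fibres. Over both days MCU vector and wild type differed by 0.30 (SE 0.17, adjusted p = 0.452). Within the MCU vector, Acvr1b was lower at day 14 than at day 7 by -1.17 (adjusted p = 0.00792), and by -1.50 with the other probe (adjusted p = 0.00201). The first of these was not called without MCU vector day 7 fibre 1 (-0.997, adjusted p = 0.0633) or fibre 2 (-1.08, adjusted p = 0.0606).

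Bmpr1a, a type I receptor for BMPs, was measured at chr14:35224339-35224398 (mm9). At day 14 all 4 MCU vector fibres, at 0.47, 0.77, 0.42 and 0.68, lay above all 4 wild-type fibres, at 0.20, 0.35, 0.08 and 0.11. At day 7 the levels were 0.58, 0.66 and 0.80, against -0.12, 0.78, 0.18 and 0.43 in wild-type fibres. The difference over both days was 0.38 (SE 0.20, adjusted p = 0.427), not called. Under silencing the levels at day 7 were 1.01, 0.29 and 0.30, against 1.19, 1.13, 1.19 and 0.66 in transfected control fibres. At day 14 they were 0.01, 0.07, 0.27 and 0.94, against 1.08, -0.21, 1.64 and 0.38 in transfected control fibres, which spread more widely than the silenced fibres. The groups overlapped, and the difference over both days was -0.45 (SE 0.20, 95% interval -0.88 to -0.03, adjusted p = 0.136). Without transfected control day 14 fibre 2 it was -0.61 (adjusted p = 0.0284).

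Of the member Smads, those tested were Smad2, Smad3 and Smad4, and none of them was called under either treatment. Smad3, which carries the myostatin and activin signal, was read by a probe at chr9:63494574-63494633 (mm9) on every array. Its level at day 14 was 2.18, 2.26, 1.86 and 2.26 in silenced fibres, against 2.47, 2.31, 2.35 and 2.43 in transfected control fibres. The silenced fibres were all lower, by -0.25 on average (SE 0.13, adjusted p = 0.328). At day 7 they stood at 2.79, 2.41 and 2.13, against 2.61, 2.58, 2.59 and 2.62 in transfected control fibres, whose values were nearly identical. Over both days the difference was -0.20 (SE 0.10, adjusted p = 0.168), and -0.29 (adjusted p = 0.0490) without silenced day 7 fibre 1. With the other Smad3 probe, silenced and transfected control fibres overlapped on both days. Their means with it were -0.06 and -0.14 at day 7, and -0.37 and -0.07 at day 14. With the first probe MCU vector fibres had Smad3 at 2.13, 2.16 and 2.27 at day 7, against 1.93, 2.15, 2.02 and 2.14 in wild-type fibres. At day 14 they had 2.00, 2.20, 2.03 and 2.26, against 1.58, 2.14, 1.52 and 1.89 in wild-type fibres. These groups overlapped, with a difference over both days of 0.23 (SE 0.10, adjusted p = 0.306). With the other probe MCU vector and wild-type fibres overlapped at day 7 (means -0.52 and -0.61) but not at day 14 (means -0.48 and -0.89).

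Smad2, the partner of Smad3, was well above background on 18 of 30 arrays. Its group means lay at -3.24 and -2.96 in MCU vector and -3.18 and -3.23 in wild-type fibres at days 7 and 14. They were -3.16 and -2.99 in silenced and -2.57 and -2.67 in transfected control fibres. The differences were 0.10 under the MCU vector (95% interval -0.68 to 0.88, adjusted p = 0.935) and -0.45 under silencing (95% interval -1.23 to 0.33, adjusted p = 0.449), intervals too wide to place either sign. Smad4, the shared partner of both branches, had its 8 group means between 1.76 and 2.21. Its differences were 0.05 under the MCU vector (95% interval -0.15 to 0.24, adjusted p = 0.878) and -0.08 under silencing (95% interval -0.27 to 0.12, adjusted p = 0.624). The other Smad4 probe gave -0.26 under silencing (adjusted p = 0.0759), also not called.

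Id1, the BMP target, was measured at chr2:152563083-152563142 (mm9) and was well above background on 28 of 30 arrays. In MCU vector day 14 fibres it was well above background in only 2 of 4, and in every other group in all fibres. At day 14 its level was -3.70, -1.84, -1.50 and -3.67 in MCU vector fibres, against -1.20, -1.80, -2.13 and -1.87 in wild-type fibres. At day 7 it was -1.71, -1.57 and -1.97 in MCU vector fibres, against -0.95, -0.46, 1.71 and -1.95 in wild-type fibres. At day 7 the MCU vector fibres lay below all wild-type fibres but the lowest, at -1.95, which reached into their range. At day 14 the MCU vector fibres at -3.70 and -3.67 lay below every wild-type fibre. Those at -1.84 and -1.50 lay within the wild-type range. The difference over both days was -1.13 (SE 0.44, 95% interval -2.04 to -0.23, adjusted p = 0.239), not called. Across the other settings this difference lay between -1.39 and -0.51, also not called. The highest value, wild-type day 7 fibre 3, came with all 4 mural cell markers and 5 of 6 endothelial markers well above background. Its summed mural level was 3.90, against 1.06 to 1.64 in the other wild-type fibres of that day and 0.99 to 1.64 in MCU vector fibres. Without that fibre the Id1 difference was -0.78 (adjusted p = 0.414). Wild-type day 14 fibres 1 and 3 also had 5 of 6 endothelial markers well above background, with Id1 at -1.20 and -2.13. Silenced day 14 fibre 3 had 6 of 6, with Id1 at -2.31. The part of other cells in the Id1 level was not tested. Under silencing Id1 lay at -1.09, -1.11 and -1.52 at day 7, against -1.60, -1.59, -0.71 and 0.27 in transfected control fibres. At day 14 it lay at -1.21, -1.14, -2.31 and -0.14, against -2.47, -1.73, -1.36 and -1.79 in transfected control fibres. The groups overlapped, and the difference over both days was 0.15 (SE 0.44, 95% interval -0.75 to 1.06, adjusted p = 0.855).

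Under the MCU vector, 0 of the 8 tested members were called over both days, against 1.13% of all genes, and 2 (Smad3 and Id1) had an unadjusted p below 0.05, as had 13.1% of all genes. By day the count was 0 at day 7 (0.574% of all genes called) and 0 at day 14 (0.428%). Under silencing 1 of 8 was called over both days, Acvr2b, against 14.1% of all genes, and 3 (Mstn, Acvr2b and Bmpr1a) had an unadjusted p below 0.05, as had 30.0% of all genes. The count was 0 at day 7 (13.4% of all genes) and 1 at day 14 (3.46%). The median difference of the 8 members was 0.17 under the MCU vector, where all genes had -0.024, and -0.16 under silencing, where all genes had 0.039. The count under silencing over both days lay near the background and is not a result about the members, and the count at day 14 is a single gene. Neither treatment's effect on any member was called as different between days (0.201% of all genes for the MCU vector and 4.13% for silencing).

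**Figure D3:**
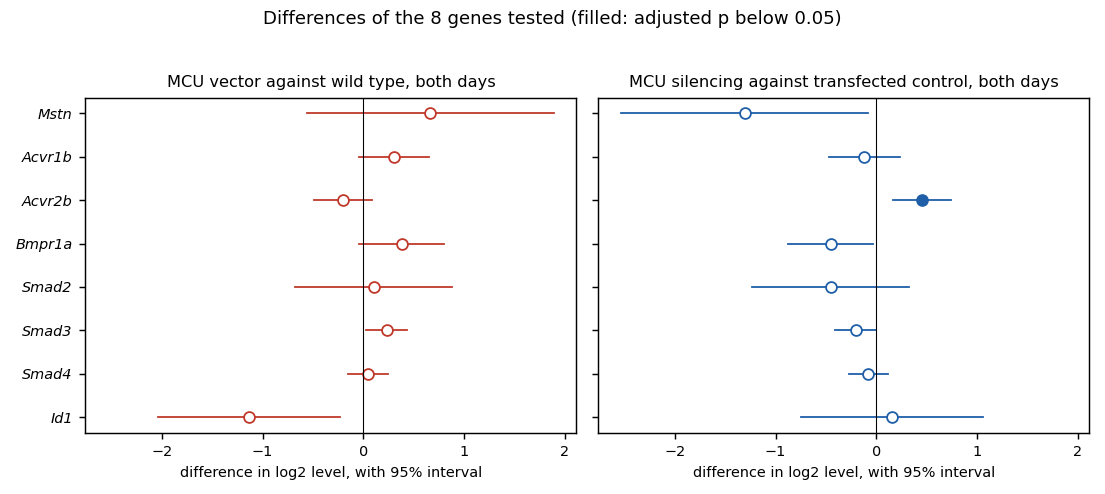
Difference in log2 level over both days with its 95% interval for the 8 tested genes, under the MCU vector (left) and under silencing (right); filled points have an adjusted p below 0.05. Acvr2b under silencing, at 0.45, is the only filled point, and the intervals of Mstn, Smad2 and Id1 are the widest.

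The MCU vector effect and the silencing effect were also set against each other within the same fit. They differed for 2 of 8 members, where 11.2% of all genes were called. Acvr2b had an effect of -0.20 under the MCU vector and 0.45 under silencing, a difference of -0.66 (SE 0.20, adjusted p = 0.0341). Smad3 had 0.23 and -0.20, a difference of 0.44 (SE 0.14, adjusted p = 0.0454), while its other probe gave 0.36 (adjusted p = 0.281). The Smad3 call was lost in 9 of 15 other settings (adjusted p up to 0.111) and without 21 of the 30 arrays taken out in turn (adjusted p up to 0.10). For Mstn the difference of effects was 1.97 (SE 0.84, adjusted p = 0.129) and for Bmpr1a 0.84 (SE 0.29, adjusted p = 0.0612), neither called. Without the 2 Myh2 fibres neither Acvr2b (-0.62, adjusted p = 0.0764) nor Smad3 (0.38, adjusted p = 0.107) was called.

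The control groups themselves differed. Over both days transfected control fibres had higher Smad3 than wild-type fibres by 0.57 (SE 0.10, adjusted p = 9.0e-05), Bmpr1a by 0.63 (SE 0.20, adjusted p = 0.0182) and Acvr1b by 0.44 (SE 0.16, adjusted p = 0.0446). Acvr2b was lower by -0.52 (SE 0.14, adjusted p = 0.00563). The Acvr1b call was lost in 6 of 15 other settings (adjusted p up to 0.232) and without 13 of the 30 arrays taken out in turn (adjusted p up to 0.103). These 13 were wild-type day 7 fibres 1, 3 and 4, all 4 wild-type day 14 fibres, transfected control day 7 fibres 1, 2 and 4, transfected control day 14 fibres 2 and 3 and MCU vector day 14 fibre 4. The Acvr2b call was lost in 2 of 15 other settings (adjusted p up to 0.0935), among them median scaling (-0.36, adjusted p = 0.0523). The Bmpr1a call was lost in 1 of 15 other settings (adjusted p up to 0.0976). The calls numbered 4 of 8 members, where 27.8% of all genes were called. The other Smad3 probe gave 0.65 (adjusted p = 0.00188) and the other Acvr1b probe 0.25 (adjusted p = 0.341). No slide held both kinds of control fibre, and virus, slide and scan day cannot be told apart here.

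A further 67 genes of the pathway, chosen by role, gave 55 that were tested. Under the MCU vector 1 of 55 was higher and 0 were lower (1.82%, against 1.13% of all genes). It was Smad1, the transducer of the BMP branch. Its level at day 14 was 2.62, 2.43, 2.75 and 3.02 in MCU vector fibres, against 1.74, 1.89, 1.65 and 2.13 in wild-type fibres. At day 7 it was 2.54, 1.96 and 1.97 in MCU vector fibres, against 1.37, 2.12, 1.80 and 1.74 in wild-type fibres. The groups were apart at day 14 and overlapped at day 7, and Smad1 was higher by 0.63 over both days (SE 0.14, adjusted p = 0.0275). The call was lost without MCU vector day 7 fibre 1, MCU vector day 14 fibre 3 or 4, wild-type day 7 fibre 1 or 4 or wild-type day 14 fibre 1 or 3, where the difference stayed between 0.53 and 0.62. Transfected control fibres averaged 2.84 at day 7 and 2.78 at day 14 for Smad1. Virus and Mcu cannot be told apart in the MCU vector difference.

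Under silencing 8 of 55 were called, or 14.5%, against 14.1% of all genes. In all 7 were lower (12.7%, against 6.10% of all genes) and 1 was higher (1.82%, against 8.00%). By role, 3 of 14 receptors and co-receptors fell and 1 rose, 2 of 11 Smads and their regulators fell, 1 of 16 ligands and processing factors fell, 1 of 7 targets fell and 0 of 7 extracellular inhibitors changed. Smad1 fell, at 2.18, 1.65, 2.10 and 2.17 in silenced fibres at day 14, against 3.22, 2.65, 2.83 and 2.41 in transfected control fibres. At day 7 Smad1 stood at 2.35, 1.85 and 1.73 in silenced fibres, against 2.78, 2.95, 2.57 and 3.04 in transfected control fibres. Every silenced fibre was below every control fibre of its day, and the difference was -0.80 (SE 0.14, adjusted p = 0.000761). Tgfbr1, the type I receptor of TGF-beta, also known as ALK5, had 1.02, 1.04, 0.60 and 0.90 in silenced fibres at day 14, against 2.50, 1.60, 1.69 and 2.03 in transfected control fibres. At day 7 it had 1.39, 1.46 and 0.88, against 2.62, 2.17, 2.32 and 1.95. The groups did not overlap on either day, and Tgfbr1 fell by 1.04 (SE 0.16, adjusted p = 0.00013).

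Bmpr1b, another BMP type I receptor, fell by 1.48 under silencing (SE 0.27, adjusted p = 0.000724), although it was well above background in only 3 of the 7 silenced fibres. Its size depended on the background correction, with -0.43 after normexp (still called). Tgif1, a nuclear corepressor of Smad2 and Smad3, fell by 1.74 (SE 0.38, adjusted p = 0.00407). Tgfb2, a TGF-beta ligand, fell by 0.61 (SE 0.14, adjusted p = 0.00507). The falls of Tgfbr1, Bmpr1b, Smad1, Tgif1 and Tgfb2 were called with any single array left out. They are falls from transfected control fibres, whose mean exceeded the wild-type mean for each of these genes on both days. Tgif1 averaged 0.02 and 0.35 in silenced, 2.16 and 1.68 in control and -0.78 and -0.12 in wild-type fibres at days 7 and 14. In the same order Bmpr1b averaged -2.80 and -2.38, -1.59 and -0.61, and -3.31 and -1.70. Tgfb2 averaged 1.68 and 1.11, 2.16 and 1.85, and 1.50 and 1.27. Acvr2a, the companion type II receptor of Acvr2b, fell by 0.64 (SE 0.19, adjusted p = 0.0286), a call that was lost without the 2 Myh2 fibres (-0.56, adjusted p = 0.109), with the myosin covariates (-0.33, adjusted p = 0.290), with array weights (adjusted p = 0.0612) and with the mean of probes (adjusted p = 0.0625). The Acvr2a call was also lost without silenced day 7 fibre 3, silenced day 14 fibre 3, transfected control day 7 fibre 1 or 2 or transfected control day 14 fibre 1 (adjusted p up to 0.0800). Hdac4, a histone deacetylase of muscle, fell by 0.48 (SE 0.16, adjusted p = 0.0456). Tgfbr3, the co-receptor betaglycan, rose by 0.85 (SE 0.29, adjusted p = 0.0483), but was not well above background in any of the 4 transfected control fibres at day 14. After normexp Tgfbr3 differed by 0.25 (adjusted p = 0.0682). The call of Hdac4 was lost without 15 of the 30 arrays taken out in turn and in 7 of 16 other settings, and its difference was -0.32 after normexp (still called). The call of Tgfbr3 was lost without 23 of the 30 arrays and in 12 of 15 other settings.

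The other genes that led their role were not called. Wfikkn1, an extracellular inhibitor of myostatin, had -0.72 under the MCU vector (adjusted p = 0.372) and 0.90 under silencing (adjusted p = 0.0796). Tdgf1 (Cripto), a co-receptor, had -0.37 under the MCU vector (adjusted p = 0.0900). Fbxo30, a ubiquitin ligase restrained by BMP signalling, had 0.65 under the MCU vector (adjusted p = 0.211).

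**Figure D4:**
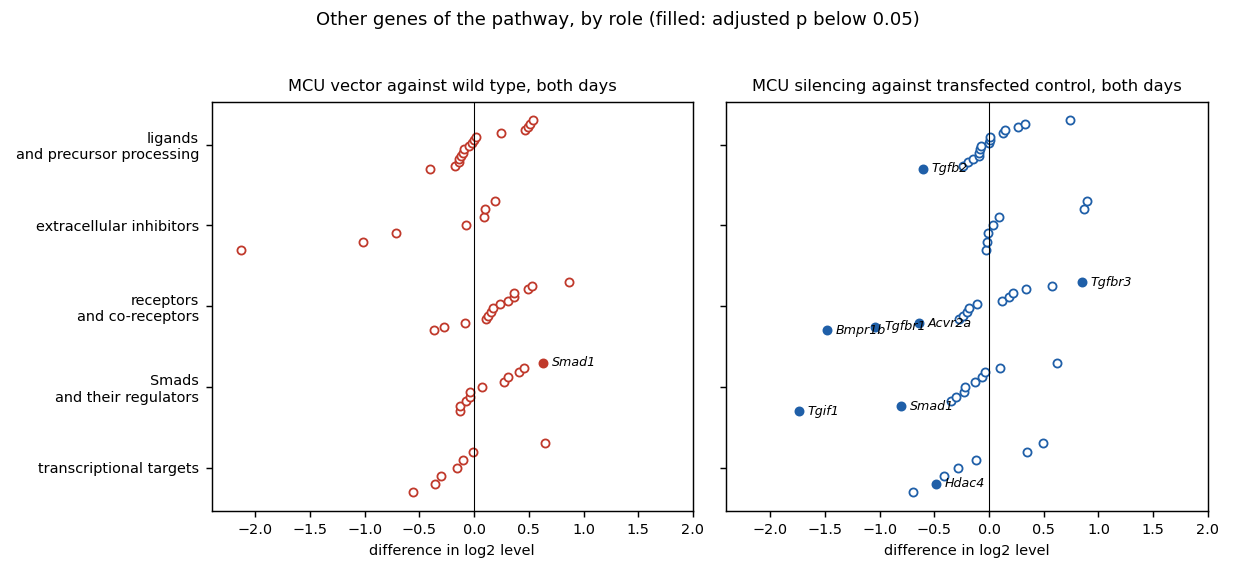
Difference in log2 level over both days of 55 further pathway genes, grouped by role, under the MCU vector (left) and under silencing (right); filled and named points have an adjusted p below 0.05. Smad1 is the named point at 0.63 on the left and is at -0.80 on the right, where 6 other named genes also lie below 0 and Tgfbr3 above it.

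The genes whose levels followed a member most closely over the 30 fibres were taken by Pearson's r. For Mstn they were Slc38a4, an amino acid transporter (r = 0.89), Capza2, an actin capping subunit (r = 0.85), and the transcript ENSMUST00000111835 (r = 0.84). For Acvr2b they included Cited2, a transcriptional coregulator (r = 0.81), and Per3, a gene of the circadian clock (r = 0.79). For Acvr1b they were Rgma, a BMP co-receptor (r = 0.82), the probe named NAP024944-001 (r = 0.76) and Zfhx3, a transcription factor (r = 0.76). These values describe fibres that share groups and slides.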

How the data were processed

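Feature Extraction 10.7.3.1 made the scanner files (mm9 design, per the file headers), and fibre RNA was amplified for 18 cycles and labelled with random primers, per the labels' protocols, so strand is not kept. The processed signal intensity deposited by the authors, background-corrected per the file headers, was used as log2 minus each array's 75th percentile. The deposited series matrix intensity was log2-transformed as an alternative, with scale, centring and processing not given in the sources used here. Outlier spots were left out. Of 55681 probes, 33163 passed the filter (well above background in 3 or more fibres of any 1 group). The brightest probe stood for a gene, and 26425 probes were named through RefSeq accessions, the rest by symbol or the file's own name. Group means were fitted with limma 3.58.1 (R 4.3.3) on 30 arrays with 22 residual degrees of freedom, with Benjamini-Hochberg adjustment over 23342 genes. The script was tested on simulated data. Members, gene lists and markers were chosen with earlier results of these data known, and the comparisons of day 14 with day 7 within a group, and the setting without the 2 Myh2 fibres, after the levels were seen. Named were all members, called pathway genes (at most 8 per comparison), the leading gene of each role, and the 3 genes most correlated with Mstn and the 2 most variable fully detected members, of which 1 gene is not reported here. Fibres with the same number did not deviate together (14 pairs, r from -0.18 to 0.19), so numbers were not used as pairs. Alternatives covered scaling, background, filters, probes, samples, weights, covariates, the replicate block and each array left out.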

Additional observations from a re-analysis of the deposited data

Results flagged for a closer look

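Among groups of 4 fibres, 9 of 150 had 1 fibre far from the other 3 by Dixon's criterion, and chance flags about 1 in 20. Bmpr1a was low at 0.66 in transfected control day 7 fibre 4. Smad4 was low at 1.73 in transfected control day 14 fibre 3. Smad7 was high at -3.54 in wild-type day 7 fibre 3, where it was not well above background. Of the other pathway genes, Tgfb2 was high at 1.60 in wild-type day 14 fibre 4, and Smad1 was low at 1.65 in silenced day 14 fibre 2. Tgif1 was high at 2.53 and Tdgf1 low at -0.68 in transfected control day 14 fibre 1. Tgfbr3 stood apart at -1.36 in wild-type day 14 fibre 2 and at -3.02 in transfected control day 14 fibre 3.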

How the results depend on the processing

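No member was called under the MCU vector over both days in any of the settings run. Counts of members called that moved by over 1.5 times are given with their setting. Silencing over both days gave 0 in place of 1 with median scaling, with only the groups compared, with Myh4 and Myh1 as covariates and without the Myh2 fibres, and 0 to 2 with arrays left out in turn. Silencing at day 14 gave 0 with only the groups compared, with the myosin covariates and without the Myh2 fibres, and 0 to 1 with arrays left out (0 without transfected control fibre 4). Silencing at day 7 gave 1 (Acvr1b) with normexp and 0 to 1 with arrays left out. The change of the silencing effect between days gave 1 (Acvr1b) with normexp, with the myosin covariates and without the Myh2 fibres, and 0 to 1 with arrays left out. The difference of the effects gave 1 in place of 2 (Acvr2b alone) with the percentile over probes well above background on all arrays, quantile normalization, series matrix values, mean of probes, the replicate block and the share of probes above background as covariate, 0 without a filter, with the myosin covariates and without the Myh2 fibres, and 0 to 3 with arrays left out. There Acvr2b lost its call without 9 of 30 arrays and Smad3 without 21. Smad3 was called there only without silenced day 7 fibre 1, silenced day 14 fibre 2 or 4, transfected control day 14 fibre 2, MCU vector day 14 fibre 1 or 3, wild-type day 7 fibre 2 or wild-type day 14 fibre 2 or 4. Transfected control against wild type gave 1 in place of 4 (Smad3) with the share covariate, 3 to 5 in the other settings and 3 to 4 with arrays left out. Pathway genes called under the MCU vector were 0 with median scaling, the replicate block and the share covariate, 2 with normexp, 4 with the myosin covariates, 8 with array weights and 0 to 2 with arrays left out. Under silencing they were 5 with array weights and 5 to 9 with arrays left out. Among differences that changed sign and were called nowhere, Smad4 between controls was -0.077 with the percentile over detected probes and with quantile normalization, -0.044 with normexp and -0.088 with series matrix values, and -0.028 to 0.044 with arrays left out. Smad2 with dim spots raised was -0.024 under the MCU vector, 0.15 under silencing and -0.18 for the difference of effects, and it was -0.089 under the MCU vector with the replicate block. With arrays left out Smad2 ran from -0.089 to 0.22 and Smad4 from -0.0050 to 0.11 under the MCU vector, and Id1 from -0.022 to 0.35 under silencing and from -0.55 to 0.060 between controls. Acvr1b under silencing was 0.010 without the Myh2 fibres. Median scaling moved the median of all genes by -0.12 under silencing and 0.16 between controls, and that of the difference of effects by 0.17, which the percentile over detected probes moved by -0.11. The cause of these changes was not tested. The labels do not say whether same-numbered fibres were pairs. The replicate block changed no call of a member in the comparisons of treated with control fibres. In the difference of effects the Smad3 call was lost with the block. The count over all genes with the block was 142 in place of 263 under the MCU vector and 2686 in place of 3292 under silencing. Signals near background limit Mstn, Smad2, Fst and Smad7, and Id1 in MCU vector day 14 fibres.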

Other observations

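Transfected control and wild-type fibres differed in 21 of the 55 further pathway genes, 12 higher and 9 lower, or 38.2%, against 27.8% of all genes, in a comparison where virus and slide cannot be told apart. Fbxo30, a ubiquitin ligase, was higher by 2.19 (adjusted p = 3.5e-07) and Tgif1 by 2.37 (adjusted p = 4.5e-05). Smad1 was higher by 1.00 (adjusted p = 1.3e-05), Tgfbr1 by 0.85 (adjusted p = 0.000173) and Bmpr1b by 1.40 (adjusted p = 0.000234). For Smad1 the group means at day 7 and day 14 were 1.98 and 2.03 in silenced fibres, 2.84 and 2.78 in transfected control fibres, 2.16 and 2.71 in MCU vector fibres and 1.76 and 1.85 in wild-type fibres. For Tgfbr1 they were 1.24 and 0.89 in silenced, 2.26 and 1.95 in transfected control, 1.61 and 1.90 in MCU vector and 1.26 and 1.27 in wild-type fibres. Silenced and wild-type fibres were not compared by a test.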
